A study of Homo sapiens with 15 samples.

Results

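SOX9 is 1 of the 60671 genes counted, and it was taken here as the measure of dose in HT115 cells, a long-established line from a human colorectal cancer, that express SOX9 constructs. It was found by its Ensembl identifier, ENSG00000125398, and followed in all 15 libraries, together with the genes whose level went with it. The libraries fall into 5 groups of 3. The mutant groups M228, M303 and M379 each expressed a V5-tagged mutant SOX9, CSOX9 expressed V5-tagged wild-type SOX9, and GFP, the control, expressed green fluorescent protein. Every group received doxycycline at 0.5 µg/ml for 24 h, so no group is without the inducer. M303 is truncated, per the series text. The sources used here do not give what M228 and M379 stand for, the vector, or whether each line was a pool or a clone. The cells keep their own SOX9 gene. Whether the 3 libraries of each group are separate cultures is not in the labels, so every p-value rests on library-to-library spread that may be technical only.

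SOX9 is a transcription factor of the SOXE family that binds DNA through an HMG box and activates genes through a domain near its C terminus. In the gut it is made at the crypt base, in stem, progenitor and Paneth cells, under the control of WNT signalling through TCF factors. In cartilage it works with SOX5 and SOX6 and switches on collagen genes, among them those of types II, IX and XI.

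The gene lies on chromosome 17 of GRCh38 at chr17:72121020-72126416, on the plus strand, with 3 exons of 803, 254 and 2874 bases. Of its 3931 exon bases, 1530 are coding with the stop codon (38.9%), and the rest are untranslated. No other annotated gene shares exon bases with it. A read over bases that a construct shares with the cells' own SOX9 counts alike for both, so the values below cannot separate them. The sources used here do not give the construct sequences. How many of the coding and untranslated bases each construct holds, M303 being truncated, is therefore not known. SOX9 reads may thus not measure SOX9 RNA alike in every construct.

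SOX9 reads split the libraries into a high and a low part. In CPM (reads scaled to a common library size, with TMM factors), SOX9 stood at 1900, 2032 and 2383 in the 3 M228 libraries. The M303 libraries held 2949, 3037 and 3039 CPM, and the M379 libraries 2034, 2329 and 2282 CPM. CSOX9 libraries held 243, 210 and 186 CPM, against 97.6, 101 and 158 CPM in GFP libraries. All 9 mutant libraries thus lay above all 6 others, and all 3 CSOX9 libraries lay above all 3 GFP libraries. In bulk samples, more SOX9-positive cells and more SOX9 RNA per cell cannot be told apart.

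**Figure D1:**
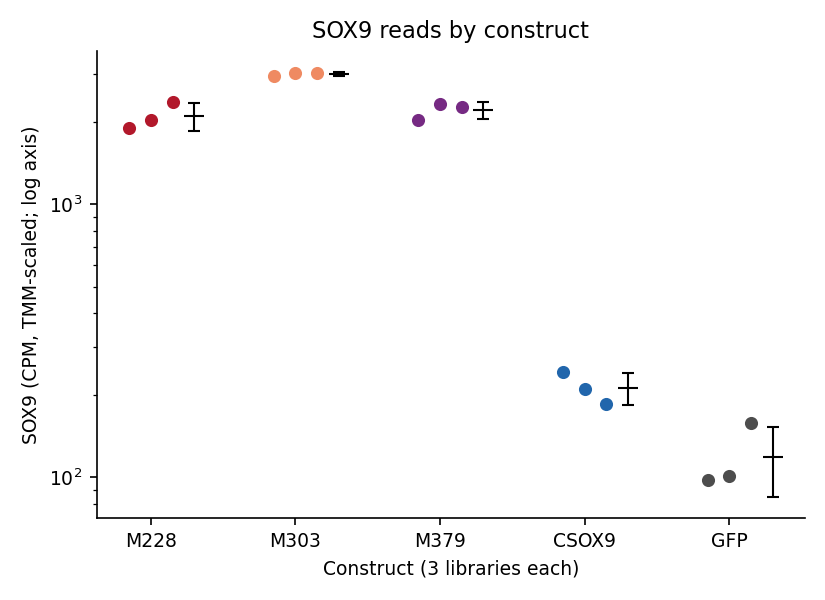
SOX9 in CPM (log axis) for each library, by construct; points are libraries, and the bar and whiskers beside them are the mean and SD of 3. The 9 mutant libraries sit between 1900 and 3039 CPM, the CSOX9 libraries between 186 and 243 and the GFP libraries between 97.6 and 158.

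Per kilobase of exon, SOX9 averaged 535 ± 63.5 CPM in M228, 765 ± 13.1 in M303, 563 ± 40.3 in M379, 54.2 ± 7.28 in CSOX9 and 30.2 ± 8.63 in GFP (SD, n = 3 each). The scale uses all 3931 annotated exon bases, and construct lengths are not given, so these levels and ranks may not compare across groups. On that scale SOX9 ranked 29 to 46 among the 16160 tested genes in the mutant libraries. Its rank was 565 to 884 in CSOX9 and 1063 to 2068 in GFP. In the M303 library with most SOX9 reads, 98778 of 31704249 reads were SOX9 (0.312%, 95% Wilson interval 0.310% to 0.314%). In the GFP library with fewest, 321 of 3054755 were (0.0105%, 0.00942% to 0.0117%), an interval of counting error only. HT115 cells with no SOX9 construct thus carried SOX9 reads, 321 to 2581 a library.

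The groups differed in how closely their libraries agreed on SOX9. The coefficient of variation of the CPM was 11.9% in M228, 1.71% in M303, 7.16% in M379, 13.4% in CSOX9 and 28.6% in GFP. Counting error alone would give at most 0.834%, 0.395%, 0.574%, 2.27% and 5.58% in the same order. In GFP, library 3 stood apart from libraries 1 and 2 by its higher SOX9.

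The 10 pairs of groups were compared with edgeR's quasi-likelihood test, and 6 were called, meaning an adjusted p under 0.05 over all genes tested. Against GFP, SOX9 was higher by 4.14 ± 0.20 on the log2 scale in M228, by 4.66 ± 0.20 in M303 and by 4.21 ± 0.20 in M379 (estimate ± SE, edgeR adjusted p = 1.77e-08, 4.40e-09 and 1.44e-08). These are 17.6-fold, 25.2-fold and 18.6-fold. The same contrasts called 0.241%, 0.118% and 0.0371% of all genes. Against CSOX9 the differences were 3.30 ± 0.19, 3.82 ± 0.20 and 3.38 ± 0.19 (9.88-fold, 14.1-fold and 10.4-fold; edgeR adjusted p = 2.69e-07, 4.47e-08 and 2.04e-07), in contrasts that called 0.569%, 0.384% and 0.124% of genes. With 3 libraries against 3, an exact two-sided permutation test of SOX9 alone cannot go below p = 0.1, which all pairs but M379 against M228 reached (0.111 adjusted over the 10 pairs).

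SOX9 was 0.84 ± 0.18 higher in CSOX9 than in GFP on the log2 scale, or 1.79-fold, with an approximate 95% interval of 0.44 to 1.23. The edgeR test did not call it (adjusted p = 0.110, unadjusted p = 0.000258), in a contrast that called 0.0309% of genes. Of the 15 fits without 1 library, only that without GFP library 3 called it, with a difference of 1.10 and an edgeR adjusted p of 0.0183. It was called also by DESeq2 (0.83, adjusted p = 0.00263), by edgeR with all genes kept (0.85, adjusted p = 0.000536) and with a replicate block (0.86). The other 3 of these 6 further settings did not call it, and estimates over the 6 ran from 0.61 to 0.86.

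Among the mutants the order was M303, then M379, then M228. SOX9 was 0.52 ± 0.17 higher in M303 than in M228 (approximate 95% interval 0.13 to 0.90) and 0.44 ± 0.17 higher in M303 than in M379 (0.05 to 0.83). The libraries of these pairs did not overlap, but neither was called over all genes (unadjusted p = 0.00973 and 0.0227, edgeR adjusted p = 1.00 for both, 0.0124% and 0% of genes called). M379 and M228 overlapped and differed by 0.07 ± 0.17 (-0.31 to 0.46, edgeR adjusted p = 1.00, 0.0433% of genes called, exact two-sided permutation p = 0.6). The order among the mutants thus passed no test over all genes.

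**Figure D2:**
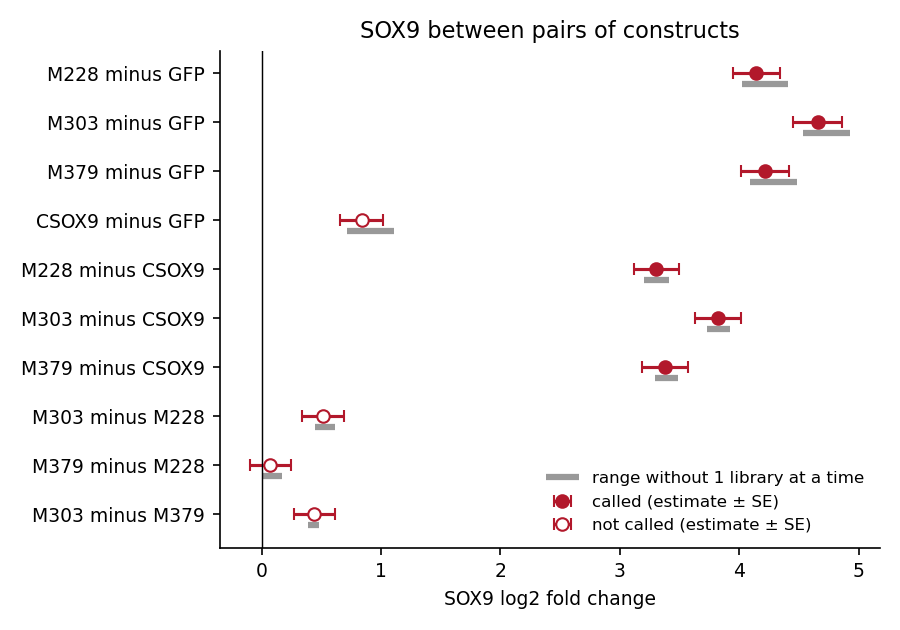
SOX9 log2 fold change for each pair of constructs with its SE; filled points are called and open points are not, and grey bars give the range when 1 library at a time is left out. The 6 pairs of a mutant with CSOX9 or GFP lie above 3, and the other 4 lie between 0.07 and 0.84.

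Facts of the whole set that bear on this follow. Library totals ran from 3054755 reads in GFP 1 to 31704249 in M303 1. In GFP 2 the 86 genes of ribosomal proteins took 7.21% of reads, where the other libraries had 3.71% to 4.91%, and no 2 libraries of a group agreed within sampling noise. All 12 markers of colon epithelium were read in every group, with summed levels of 13050 to 24792 CPM. The 13 markers of fibroblasts, leukocytes and endothelium summed to 3.95 to 7.15 CPM in every library. The chondrocyte gene COL2A1 had 6 reads in all, and CD3E and CDH5 had none.

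No gene around SOX9 had a called slope on it. Of 52 annotated genes within 2 megabases, 11 passed the filter and 16 had no read. By edgeR, 0 of the 11 had an adjusted p under 0.05 for the slope, and 0 were called in any group against GFP. SOX9-AS1, the antisense RNA gene that spans SOX9 on the minus strand, had 109, 171, 100, 91 and 63 reads in M228, M303, M379, CSOX9 and GFP, and its group means lay between 1.97 and 2.79 CPM. Its slope, the log2 change of a gene per log2 unit of SOX9, was 0.05 ± 0.04 (SE, edgeR adjusted p = 0.791). Exons of the 2 genes do not overlap, so spliced reads of one were not counted for the other.

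LINC00511, a long noncoding RNA gene 164 kb from the 3′ end of SOX9, came closest to a call. It averaged 29.6, 30.5 and 32.2 CPM in M228, M303 and M379, 37.7 in CSOX9 and 37.9 in GFP. Its slope was -0.07 ± 0.02 (edgeR adjusted p = 0.0646). Inside the 9 mutant libraries its correlation with SOX9 was r = -0.05 and inside the 6 others r = -0.01. Next came CDC42EP4, 1157 kb away, with a slope of 0.04 ± 0.02 (edgeR adjusted p = 0.376). COG1, a Golgi complex subunit gene 1066 kb away, followed with a slope of 0.04 ± 0.02 (edgeR adjusted p = 0.491).

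**Figure D3:**
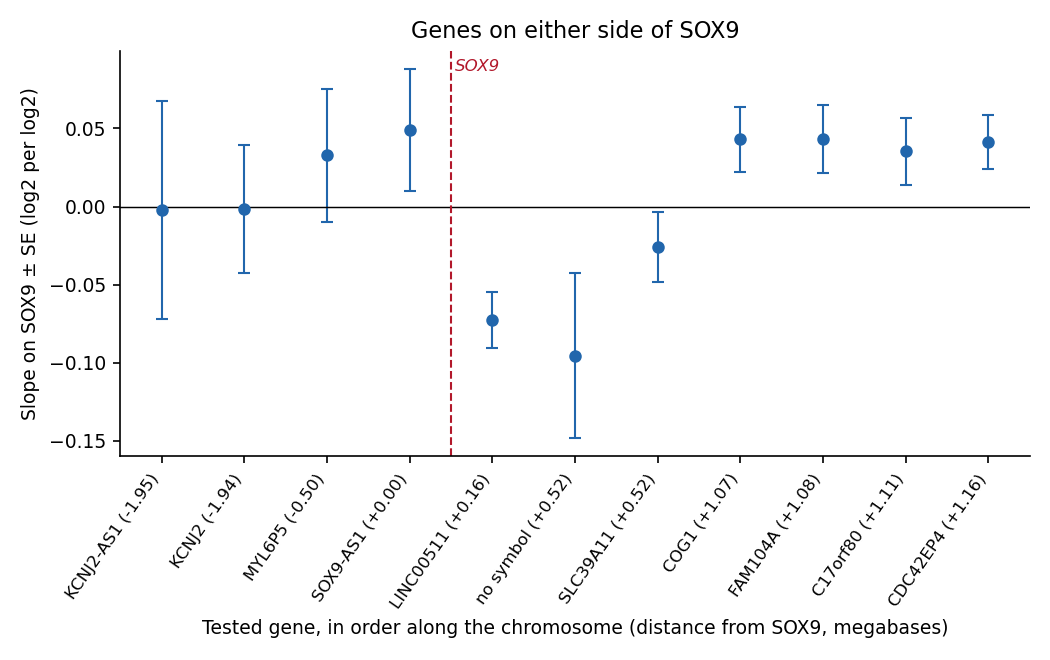
Slope on SOX9 with its SE for the 11 tested genes within 2 megabases, in order along the chromosome, with the distance from SOX9 in megabases beside each name. The slopes run from -0.10 to 0.05, and none was called.

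Over all 15 libraries, 135 of 16159 genes followed SOX9 (0.835%), 86 higher with it (0.532%) and 49 lower (0.303%), by edgeR's test of the slope. At an unadjusted p under 0.05 there were 1649 (10.2%). Since the SOX9 level is high in the 3 mutant constructs and low in the rest, this slope and a difference of mutants from CSOX9 and GFP cannot be told apart over the 15 libraries. Of the 86 higher genes, 54 had their CSOX9 mean between that of GFP and the mutants, and 32 had it below both. Of the 49 lower genes, 23 had the CSOX9 mean between and 26 had it above both.

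The count depends on single libraries. Without GFP 2, the library with the high ribosomal share, 530 genes were called, 131 of them among the 135. Without M228 3, M303 2 or M303 3 it was 65, 55 and 63, without M379 1 or M379 3 it was 89 and 81, and without CSOX9 1, 2 or 3 it was 76, 49 and 53. DESeq2 called 322.

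Slopes that leave out the step between the mutants and the rest called no gene by edgeR. With the group means taken out, so that no step between constructs remains, 0 genes had a called slope (1034 unadjusted, DESeq2 2). That count was 59 with no filter on low values and 4568 on libraries 2 and 3 alone, so it depends on the setting. Over the 9 mutant libraries 0 were called (345 unadjusted, DESeq2 3), and over the 6 CSOX9 and GFP libraries 0 (1342 unadjusted, DESeq2 22). SOX9 ran from 1900 to 3039 CPM in the first of these sets and from 97.6 to 243 CPM in the second. Both slopes still hold a step between constructs, of M303 above M228 and M379 and of CSOX9 above GFP. Replicate numbers pair the mutant libraries by the rule used, and with the number as a block 8 genes were called over the 9. Among these 8, and chosen after their values were seen, SBSPON and the matrix protease MMP7 were lower with SOX9 and the tubulin gene TUBA1A higher (edgeR adjusted p = 0.0213, 0.0213 and 0.0259). SBSPON held 25.8, 29.8 and 22 CPM in M228, 16.7, 18.5 and 17.6 in M303 and 27.4, 24.8 and 28.3 in M379, so M303 lay below both others. Without GFP 1, the shallowest library, the slope over the remaining CSOX9 and GFP libraries was called for 3240 genes, with GFP 2 then 1 of the 2 GFP libraries left.

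The genes most like SOX9 are named by Pearson's r of log2 CPM over the 15 libraries, among called genes with a mean log2 CPM of at least 1; r is a description and carries no p. The 12 highest were FURIN, CNN3, SPINK5, CD109, CLGN, PCBP4, STIM1, CTSV, INPPL1, HIP1R, CALD1 and SLC6A20, with slopes of 0.07 to 0.86. In 11 of the 12 every mutant library lay above every other library, and in 9 M303 had the highest mean. The choice by r favours such separation, which held in 43 of all 86 higher genes and in 16 of the 49 lower genes. A called slope favours it as well, so these shares are no background, and the share over all 16159 tested genes is not given here. The choice by r also favours a highest mean in M303, where SOX9 is highest, and that share was not counted over the 86. The CSOX9 mean lay between GFP and the mutants in 10 of the 12, against 54 of all 86 higher genes. The choice by r favours this too, since SOX9 itself has that order, and the share over all tested genes is not given here.

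FURIN, the protease that cleaves proproteins in the secretory pathway, was the most like SOX9 (r = 0.916). It held 140, 125 and 142 CPM in M228, 167, 146 and 150 in M303, 144, 127 and 144 in M379, 119, 116 and 112 in CSOX9, and 98.8, 94.2 and 93.6 in GFP. The 5 group means stood in the order of the SOX9 means, but M228 and M379 overlapped both in FURIN and in SOX9. CSOX9 did not overlap with GFP or with the mutants. Its slope was 0.12 ± 0.02 (edgeR adjusted p = 0.00524), with r = 0.62 inside the 9 mutant libraries and 0.83 inside the 6 others. Of the single contrasts only M303 against GFP was called (0.69 ± 0.11, edgeR adjusted p = 0.0227).

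SPINK5, an inhibitor of serine proteases of stratified epithelia, also placed CSOX9 between GFP and the mutants, at a lower level; M379 and M303 had about the same mean. Its CPM were 6.73, 9.74 and 9.44 in M228, 9.52, 10.8 and 12.8 in M303, 8.86, 12.9 and 11.4 in M379, 6.08, 5.16 and 4.78 in CSOX9, and 1.52, 2.64 and 3.85 in GFP. No CSOX9 library overlapped with GFP or a mutant. The slope was 0.35 ± 0.04 (edgeR adjusted p = 0.000893; r = 0.57 inside the mutants and 0.95 inside the others). It was called against GFP in all 3 mutants, by 1.53 ± 0.26 in M228, 1.89 ± 0.25 in M303 and 1.90 ± 0.26 in M379 (edgeR adjusted p = 0.0202, 0.00725 and 0.0104).

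CNN3, an actin-binding calponin, averaged 71.5 ± 9.17 CPM in M228, 77.1 ± 9.54 in M303, 72.8 ± 4.51 in M379, 51.9 ± 1.21 in CSOX9 and 39.1 ± 10.2 in GFP (SD, n = 3 each; slope 0.19 ± 0.03). CTSV, a lysosomal cysteine protease, held 6.42, 5.97 and 6.40 CPM in CSOX9 and 2.13, 5.11 and 5.51 in GFP, below the 8.70 to 11.7 of the mutants. STIM1, the calcium sensor of the endoplasmic reticulum, and INPPL1, an inositol phosphatase, had small slopes, of 0.11 ± 0.02 and 0.07 ± 0.02. INPPL1 is the least firm, since its call was kept in 2 of 15 fits that left out 1 library, while the other 11 kept theirs in all 15.

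A second pattern among the 12 set the mutants against both other groups. CALD1, the actin regulator caldesmon, had the steepest slope of the 12 (0.86 ± 0.10, edgeR adjusted p = 0.000893). It held 2.37, 2.68 and 2.60 CPM in M228, 6.45, 7.51 and 8.68 in M303 and 3.96, 3.51 and 5.65 in M379, against 0.778, 0.136 and 0.191 in CSOX9 and 1.22, 0.170 and 0.918 in GFP. Here the mutant means stood in the order of their SOX9 means (r = 0.85 inside the 9), while CSOX9 was not above GFP. In SOX9 itself M228 and M379 overlapped. The values of CSOX9 2, CSOX9 3 and GFP 2 lay below the level of 3 reads (0.201, 0.278 and 0.237 CPM). In GFP 1 that level was 0.982 CPM, close to its 1.22. The order of CSOX9 and GFP and the size of the slope are therefore uncertain. CALD1 was called against CSOX9 in all 3 mutants, by 2.57 ± 0.49 in M228, 4.14 ± 0.45 in M303 and 3.36 ± 0.46 in M379 (edgeR adjusted p = 0.0240, 0.000473 and 0.0195).

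CLGN, a chaperone of the endoplasmic reticulum, showed it too, with 2.18 to 4.55 CPM in the mutants, 0.814 to 0.955 in CSOX9 and 0.596 to 1.84 in GFP. PCBP4, an RNA-binding protein, averaged 19.2 ± 3.17 CPM in M228, 28.1 ± 5.51 in M303, 24.6 ± 3.0 in M379, 11.2 ± 0.624 in CSOX9 and 10.4 ± 4.0 in GFP (SD, n = 3 each). CD109, a membrane protein that binds TGF-beta, held 6.56 to 11.6 CPM in the mutants, 2.24 to 3.74 in CSOX9 and 0.852 to 4.59 in GFP. HIP1R, an actin-linked endocytic adaptor, and SLC6A20, a transporter of proline, had r near 0 inside the mutants (0.05 and -0.02). For SLC6A20 the highest mean was in M228, at 316 ± 52.4 CPM.

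**Figure D4:**
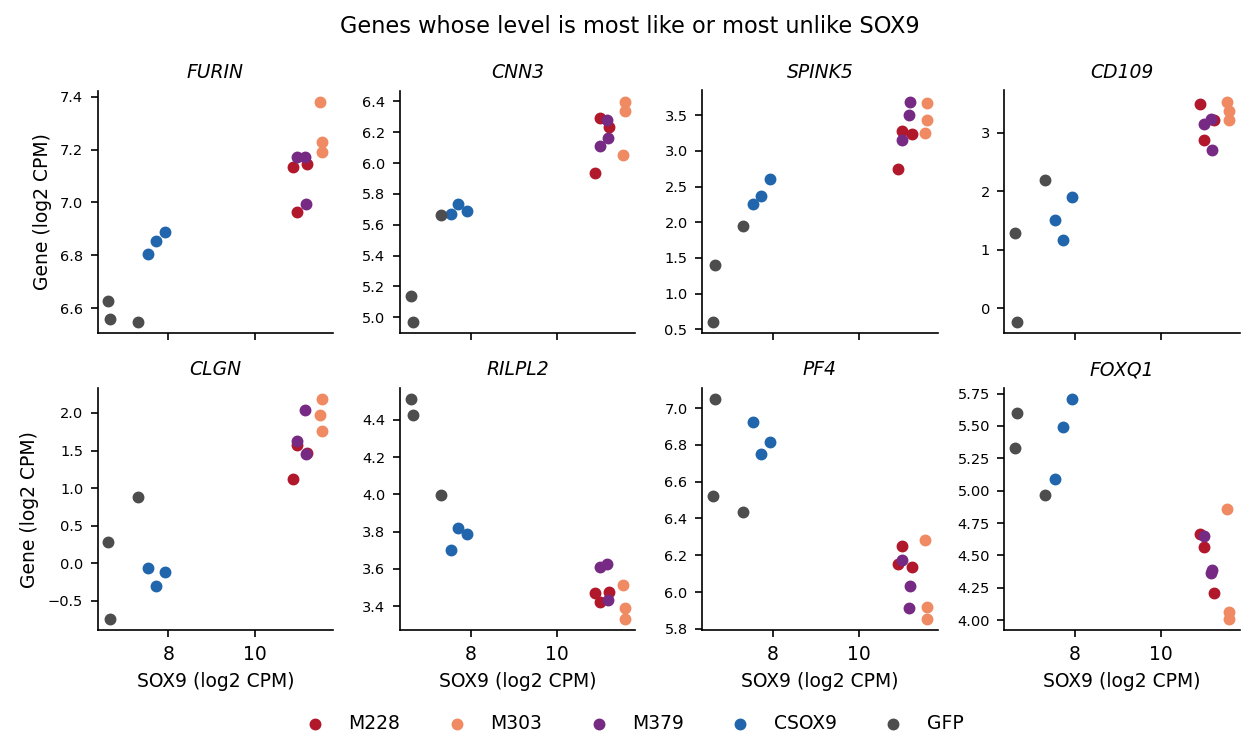
Level of 8 genes against SOX9, both in log2 CPM, 1 point per library, coloured by construct. FURIN, CNN3 and SPINK5 place CSOX9 between GFP and the mutants, CD109 and CLGN do not separate CSOX9 from GFP, and RILPL2, PF4 and FOXQ1 are lowest in the mutants.

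The 8 genes most unlike SOX9 were RILPL2, PF4, FOXQ1, ANXA6, ATP2A3, EFCAB11, CXCL1 and NEFM, with slopes of -0.26 to -0.13. RILPL2, a protein of cilia and lysosome transport, had r = -0.876, and its CSOX9 libraries overlapped with neither GFP nor the mutants. It held 11.1, 10.7 and 11.1 CPM in M228, 11.4, 10.5 and 10.1 in M303 and 12.2, 10.8 and 12.4 in M379, against 13.8, 14.1 and 13 in CSOX9 and 22.8, 21.5 and 16 in GFP. The CSOX9 mean also lay between in ANXA6, ATP2A3 and EFCAB11, with libraries that overlapped. RILPL2 was called against GFP in M228 and M303 (-0.85 ± 0.15 and -0.89 ± 0.15, edgeR adjusted p = 0.0242 and 0.0267).

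PF4 and CXCL1, chemokine genes, and FOXQ1, a forkhead transcription factor, were lower in the mutants with no order between CSOX9 and GFP. PF4 averaged 72.5 ± 3.11, 65.3 ± 10.9 and 65.9 ± 5.97 CPM in M228, M303 and M379, 114 ± 7.02 in CSOX9 and 104 ± 25.2 in GFP (SD, n = 3 each). CXCL1 held 26.6 to 45.6 CPM in the mutants, 55.7 to 69.6 in CSOX9 and 38.0 to 72.6 in GFP, so GFP overlapped with both. FOXQ1 was 16.1 to 29, 34.1 to 52.3 and 31.3 to 48.5 CPM in the same order. ANXA6, a calcium-binding annexin, and ATP2A3, a calcium pump, did have their highest mean in GFP, at 58.9 ± 5.53 and 17.4 ± 5.03 CPM. The call of EFCAB11 was kept in 7 of 15 fits without 1 library, and NEFM, a neurofilament gene, shares 26.4% of its exon bases with another gene, which makes its value uncertain.

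Some genes differ between constructs in a way that 1 straight line on SOX9 cannot describe. An edgeR test of the group means against a line on the group mean of SOX9 called 11 of 16159 genes (0.0681%; 688 unadjusted, DESeq2 101). Single libraries move this count: it was 4, 1 and 2 without M228 1, 2 or 3, 6 and 4 without M303 1 or 3, 7 and 4 without M379 2 or 3, 6 and 6 without CSOX9 1 or 2, and 18 without GFP 2. Of the 8 named by the rule, 4 had their highest mean in M228, 3 in CSOX9 and 1 in M303.

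COL9A3, which encodes a chain of type IX collagen, departed with M228 apart from the other mutants. It held 3.14, 3.11 and 3.50 CPM in M228, 15.1, 21.4 and 23.0 in M303 and 11.6, 16.2 and 21.7 in M379, against 12.7, 5.90 and 5.64 in CSOX9 and 1.52, 3.07 and 1.96 in GFP. M228, with 2105 CPM of SOX9, thus had less COL9A3 in every library than any CSOX9 library, with 213 CPM of SOX9. That difference was not called (-1.33 ± 0.33, edgeR adjusted p = 0.109), nor was CSOX9 against GFP (1.83 ± 0.36, edgeR adjusted p = 0.105). The edgeR adjusted p of the departure was 0.0126. COL9A3 was called higher than GFP in M303 (3.09 ± 0.36) and M379 (2.83 ± 0.36), and higher than M228 in M303 (2.59 ± 0.33) and M379 (2.33 ± 0.33), with edgeR adjusted p = 0.00223, 0.00725, 0.00702 and 0.0133. The departure was kept in 12 of 15 fits without 1 library. The other named departures were kept in 14 (PKIB), 13 (NTN4), 10 (ELFN2), 7 (HUNK, APCDD1) and 4 (ADRA2A, SERPINE2) of such fits.

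PKIB, NTN4, ELFN2 and SERPINE2 were highest in M228. NTN4, a netrin of basement membranes, held 12.2, 15.5 and 16.3 CPM in M228, 4.96, 4.43 and 5.45 in M303 and 3.02, 3.44 and 4.22 in M379, against 1.95, 3.19 and 2.48 in CSOX9 and 2.43, 2.47 and 5.69 in GFP. Of the 4 groups set against GFP only M228 was called (1.94 ± 0.29, edgeR adjusted p = 0.00746), although M303 had more SOX9. PKIB, an inhibitor of protein kinase A, averaged 52.4 ± 8.36 CPM in M228 and 19.6 to 29.3 in the other 4 groups. ELFN2 averaged 11.9 ± 0.856 CPM in M228 and was also above CSOX9 in M303 and M379 (1.80 ± 0.26 and 1.65 ± 0.26, edgeR adjusted p = 0.0065 and 0.0328). SERPINE2, a secreted protease inhibitor, averaged 46.9 ± 7.45 CPM in M228 and 23.0 to 27.2 elsewhere.

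AQP3, a water and glycerol channel, and EHD2, a protein of caveolae, were also called, fall outside the naming rule, and are named with their values already seen. Both had their highest mean in M228, at 17.4 and 14 CPM, against at most 9.26 and 9.21 CPM in the other 4 groups.

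HUNK, APCDD1 and ADRA2A were highest in CSOX9, where SOX9 averaged 213 CPM against 2105 or more in the mutants. HUNK, a protein kinase, held 37.2, 32.9 and 28.9 CPM in CSOX9, against 13.1, 11.7 and 16.3 in GFP (1.26 ± 0.16, edgeR adjusted p = 0.0197), and 18.1 to 23.6 in the mutants. APCDD1, an inhibitor of WNT signalling, averaged 10.7 ± 3.16 CPM in CSOX9 and 1.93 ± 1.34 in GFP, and 2.51, 2.86 and 3.02 CPM in M228, M303 and M379. Inside the 6 CSOX9 and GFP libraries the correlation with SOX9 was r = 0.96 for HUNK and 0.80 for APCDD1, and inside the 9 mutant libraries -0.53 and -0.13. ADRA2A, an adrenergic receptor, fell below GFP in M228 (-1.33 ± 0.17) and M303 (-0.95 ± 0.16), with edgeR adjusted p = 0.00375 and 0.0328.

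**Figure D5:**
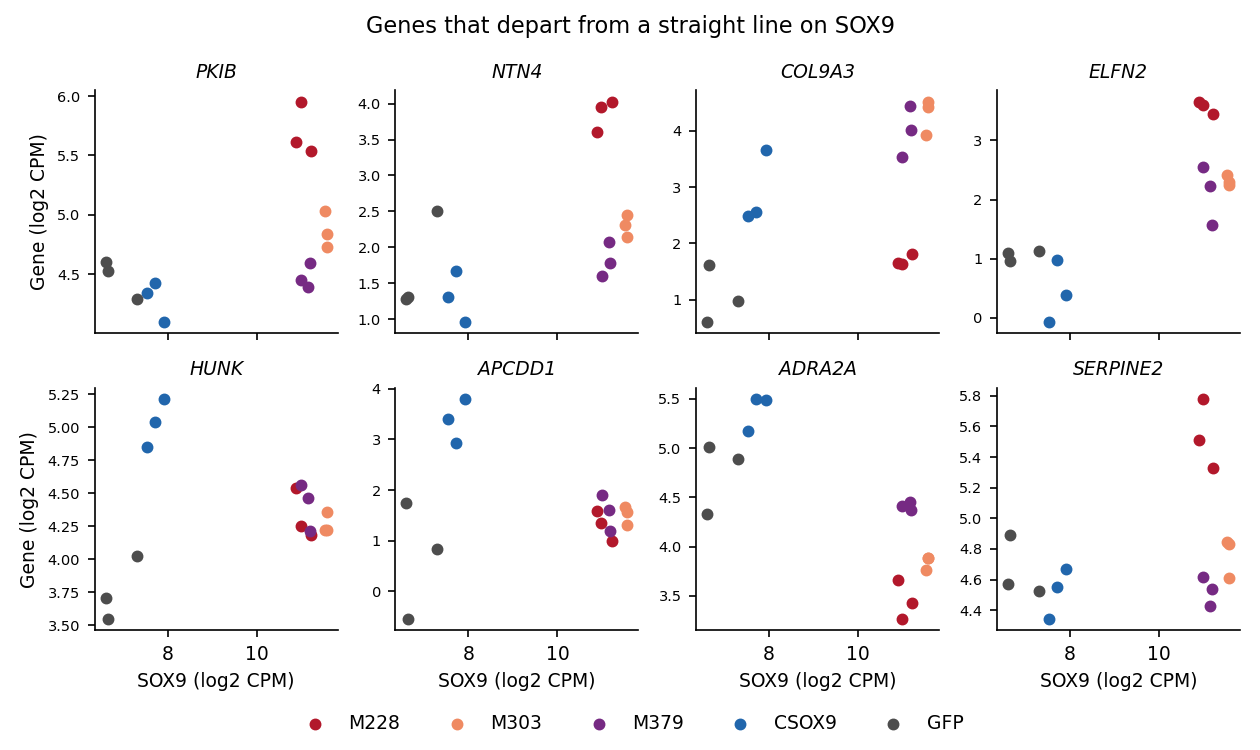
Level of the 8 named genes that depart from a straight line on SOX9, against SOX9, both in log2 CPM, 1 point per library. PKIB, NTN4, ELFN2 and SERPINE2 are highest in M228, HUNK, APCDD1 and ADRA2A in CSOX9, and COL9A3 is low in M228 although SOX9 is high there.

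SOX9 binds a core of AACAAT, and the promoters of the named genes were searched for these letters. RefSeq promoters (GRCh38.p14, 250 bases before to 50 after the start) were matched by symbol for 12 of the 12 genes most like SOX9 and for 5 of the 8 most unlike. The letters AACAAT, or ATTGTT on the other strand, stood in 10.3% of 27305 promoters and in 5.32% of the 11027 promoters of tested genes. They stood in 6 of 65 promoters of genes higher with SOX9 (9.23%) and in 2 of 33 of genes lower with it (6.06%). These counts are small and a description only. The 3 promoters below are shown because FURIN is the gene most like SOX9 and because PCBP4 and NTN4 are the named genes whose window holds the letters. They lie at chr15:90871290-90871589 (plus strand), chr3:51967417-51967716 (minus strand) and chr12:95791106-95791405 (minus strand), each written 5′ to 3′ with the match in capitals.
FURIN: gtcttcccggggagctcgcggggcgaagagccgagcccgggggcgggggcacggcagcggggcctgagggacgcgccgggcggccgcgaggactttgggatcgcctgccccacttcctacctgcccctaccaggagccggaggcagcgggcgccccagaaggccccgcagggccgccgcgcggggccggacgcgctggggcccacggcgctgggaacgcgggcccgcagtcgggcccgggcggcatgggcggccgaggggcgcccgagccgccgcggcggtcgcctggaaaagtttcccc
PCBP4: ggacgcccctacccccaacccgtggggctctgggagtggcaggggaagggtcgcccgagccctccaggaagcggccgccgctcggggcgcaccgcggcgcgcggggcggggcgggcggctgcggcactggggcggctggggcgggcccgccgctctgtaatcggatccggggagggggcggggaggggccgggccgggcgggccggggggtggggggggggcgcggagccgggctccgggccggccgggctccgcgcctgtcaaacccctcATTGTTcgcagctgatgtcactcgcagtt
NTN4: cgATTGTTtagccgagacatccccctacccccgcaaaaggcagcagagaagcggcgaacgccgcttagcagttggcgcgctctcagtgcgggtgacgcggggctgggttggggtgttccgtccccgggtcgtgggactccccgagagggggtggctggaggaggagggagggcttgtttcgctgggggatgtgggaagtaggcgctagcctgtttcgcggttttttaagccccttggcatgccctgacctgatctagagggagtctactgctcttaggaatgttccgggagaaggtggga
G and C make up 80.3% of the FURIN window, 80.0% of that of PCBP4 and 62.3% of that of NTN4. The FURIN window does not hold these letters.

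The gene lists were counted in the same slope test over 15 libraries, in which 0.835% of all genes were called, 10.2% had an unadjusted p under 0.05 and the median slope was 0.00. Of 6 SOX partners, 4 were tested and 0 called (1 unadjusted; median slope -0.01). SOX6, with which SOX9 acts in cartilage, held 9.05, 4.48 and 3.06 CPM in CSOX9 and 1.22, 0.596 and 1.28 in GFP, and 0.780 to 2.01 in the mutants. Its r with SOX9 was 0.91 inside the CSOX9 and GFP libraries, and it was called lower in M228 than in CSOX9 (-2.06 ± 0.41, edgeR adjusted p = 0.0330). SOX8, of the same family as SOX9, averaged 1.77 to 2.99 CPM in the 5 groups (slope -0.03 ± 0.05). SOX5 and SOX10 did not pass the filter, with 6 and 40 reads in all.

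Of 16 cartilage genes that SOX9 is known to switch on, 5 were tested and 0 had a called slope (2 unadjusted; median slope 0.05). COL9A3, described above, was the only one with a call in any test run here. COL9A2, its partner chain, had a slope of 0.05 ± 0.06 and FGFR3, a growth factor receptor of the growth plate, 0.06 ± 0.03 (edgeR adjusted p = 0.856 and 0.428). COL11A2, a type XI collagen chain, averaged 0.759 to 1.29 CPM, with a slope of -0.09 ± 0.06. COL2A1, ACAN and COMP had 6, 4 and 1 reads in all 15 libraries, and COL11A1 had none, so the classic cartilage genes were near or at 0 at every SOX9 level.

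Of 16 colon genes linked to SOX9 all were tested and 2 had a called slope, both lower (0.303% of all genes were). At an unadjusted p under 0.05 there were 6 of the 16, where 10.2% of all genes were, and the median slope was -0.03. IGFBP4, a binding protein of insulin-like growth factors, averaged 25.5 ± 4.17, 33.7 ± 4.42 and 34.0 ± 3.14 CPM in M228, M303 and M379, 42.9 ± 4.22 in CSOX9 and 55.1 ± 14.6 in GFP (SD, n = 3 each; slope -0.16 ± 0.03, edgeR adjusted p = 0.0207). LYZ, the lysozyme of Paneth cells, held 636 to 1013 CPM in M228, 809 to 1554 in M303, 1020 to 1440 in M379, 2567 to 3543 in CSOX9 and 1404 to 2429 in GFP. Its slope was -0.29 ± 0.06 (edgeR adjusted p = 0.0271), but CSOX9 lay above GFP in every library, so it did not fall in steps, and 34.7% of its exon bases are shared with another gene. LGR5, the crypt stem cell receptor, had a slope of -0.10 ± 0.04 and MUC2, the goblet cell mucin, -0.15 ± 0.05, neither called (edgeR adjusted p = 0.449 and 0.238).

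Of 18 genes of the WNT pathway above SOX9, 17 were tested and 0 had a called slope (5 unadjusted; median slope 0.02). APCDD1, a departure described above, is in this list and was called higher in CSOX9 than in GFP (2.74 ± 0.38, edgeR adjusted p = 0.0227). Against CSOX9 it was called lower in M228, M303 and M379 (-2.10 ± 0.34, -1.91 ± 0.32 and -1.83 ± 0.33, edgeR adjusted p = 0.00981, 0.0193 and 0.0436). The mediators CTNNB1 and TCF7L2 had slopes of 0.02 ± 0.02 and 0.03 ± 0.03. TCF7, a WNT transcription factor, held 39.6 to 43.5 CPM in M228, 40.0 to 42.2 in M303 and 46.6 to 50.8 in M379, against 64.0 to 68.6 in CSOX9 and 44.1 to 53.9 in GFP. It was called lower than in CSOX9 in M228 and M303 (-0.64 ± 0.11 and -0.68 ± 0.11, edgeR adjusted p = 0.0124 and 0.0135). DKK1, a secreted WNT inhibitor, averaged 40.2 ± 13.3, 19.3 ± 9.18 and 19.5 ± 5.89 CPM in M228, M303 and M379, 14.1 ± 1.03 in CSOX9 and 13.9 ± 8.85 in GFP (SD, n = 3 each), with a slope of 0.21 ± 0.08 (edgeR adjusted p = 0.366). AXIN2, a feedback target, had a slope of -0.07 ± 0.02 (edgeR adjusted p = 0.148).

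Of 18 genes that modify, carry or degrade the SOX9 protein or act with it, all were tested and 0 had a called slope (2 unadjusted; median 0.02). FBXW7, the ubiquitin ligase subunit that marks SOX9 for degradation, had a slope of 0.01 ± 0.03 and a mean of 22.1 to 24.4 CPM in every group. PRKACB, a catalytic subunit of protein kinase A, averaged 4.46 to 7.22 CPM (slope 0.11 ± 0.06, edgeR adjusted p = 0.574). PRKACA, a kinase that phosphorylates SOX9, had one of 0.05 ± 0.02, and SKP1, of the ligase complex, -0.06 ± 0.02 (edgeR adjusted p = 0.247 and 0.334). The 12 epithelial markers had 0 called. Of the 13 markers of other cells, 3 were tested, and COL3A1, a fibrillar collagen, was called higher with SOX9 at 0.201 to 1.69 CPM in the mutants, 0.0973 to 0.271 in CSOX9 and up to 0.306 in GFP (edgeR adjusted p = 0.0499), from 33 reads or fewer a library. The part of other cells in these results was not tested.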

How the data were processed

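Poly(A) RNA-seq (150-base paired-end) was made from 15 libraries in 5 groups of 3. The authors deposited raw read counts for 60671 genes, 42020 of which had a symbol; per the submitters' processing notes and the file headers, the aligner was STAR 2.7.0a, the genome hg38 and the counter featureCounts 2.0.1 on Ensembl release 101, with no strand setting in the recorded command. A second deposited table of normalized values was not used; 3 of its columns match no label. The series text names 6 experiments in 2 replicates, whereas 5 groups of 3 were analysed. The members and gene lists were chosen with earlier results of these data known.

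Counts were scaled by TMM and tested with edgeR 4.0.16 (quasi-likelihood, R 4.3.3); a low-count filter by group left 16160 genes. Python 3.11.15 made the tables. SOX9 was compared in 10 pairs of groups. Every other gene was fitted on SOX9 log2 CPM over all libraries, with group as a term, over the 9 mutant libraries and over the 6 others. The departure test compared group means with a straight line on mean SOX9. A call is a Benjamini-Hochberg adjusted p under 0.05 over all genes. Each SE of a log2 change or slope was derived from its size divided by the square root of the edgeR F value. These SE, and the intervals built on them, are therefore approximate. Named genes are the 12 called genes of highest and the 8 of lowest correlation with SOX9 and the 8 departures of smallest p, with a symbol and a mean log2 CPM of at least 1; in each list, called members, or the 2 of largest change where none was called. Other list members are named for their role, and neighbours for their position, after their values were seen. Scripts were tested on simulated data. Totals of 3054755 to 31704249 reads set the precision, and intervals and the floor of 3 reads cover counting error only. Alternatives were DESeq2 1.42.0, its size factors in edgeR, no filter, a replicate block, libraries 2 and 3 alone and leaving out each library. A linear SOX9 scale was used for the slopes only, and a fit of the 2 groups alone for the pairs only. Same-numbered libraries deviated together (correlation over 0.1 for each number) for M228, M303 and M379 against GFP and each other and for M303 against CSOX9, and not for CSOX9 against GFP (-0.03 for number 2), M228 against CSOX9 (0.06) or M379 against CSOX9 (0.07). Of the called genes, 1 is not reported here.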

Additional observations from a re-analysis of the deposited data

How the results depend on the processing

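The 6 called SOX9 differences kept their calls in all 15 fits without 1 library and in 6 other settings, and the 3 differences between mutants stayed without a call in all of them. SOX9 in CSOX9 against GFP was called with no filter (0.85), with a replicate block (0.86) and by DESeq2 (0.83), and ranged from 0.72 to 1.10 with 1 library left out. The other 3 of the 6 settings left it without a call, and over the 6 it ranged from 0.61 to 0.86. The number of genes following SOX9 over 15 libraries was 295 with a replicate block, 58 on libraries 2 and 3 alone and 322 by DESeq2, and 49 to 530 with 1 library left out. Within groups it was 59 with no filter, 4568 on libraries 2 and 3 alone and 2 by DESeq2. Over the 9 mutant libraries it was 8 with a replicate block and 3 by DESeq2. Over the 6 CSOX9 and GFP libraries it was 4 with no filter, 4240 on libraries 2 and 3 alone, 22 by DESeq2 and 0 to 3240 with 1 library left out. Genes departing from a line numbered 221 with no filter, 71 with a replicate block, 0 on libraries 2 and 3 alone (574 unadjusted) and 101 by DESeq2, and 1 to 18 with 1 library left out. The cause was not tested. The departure was not run on the linear scale. Of the slopes of named genes, 386 values kept their call and 34 lost it, and of the departures 103 kept it and 57 lost it. None changed sign. The replicate block changed no other call among the SOX9 pairs and the 28 named followers and departures. Its values for list members, MMP7 apart, and for neighbours are not given here.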
